A study of Homo sapiens with 6 samples.

Results

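The 59 genes described here lie on the short arm of chromosome 16, between its telomere and THUMPD1, the gene disrupted in the THUMPD1 KO line. They were selected from a stretch whose RNA levels were already known to be lower in THUMPD1 KO than in wild-type (WT) cells, and within it for the variety of their functions. Their difference between genotypes is therefore the basis of their selection and is given below as a description. Where calls of the fit across all genes and 95% intervals are given for the members, they too describe the values used for the selection and support nothing. They are 59 of the 243 genes tested in that stretch, of 15088 genes tested and of 58870 in the deposited table. All 59 passed the filter on low values. The first, RHBDF1, starts at base 58059 of chromosome 16 and the last, SMG1, ends at base 18926408 (GRCh38, GENCODE positions), while THUMPD1 occupies chr16:20702816-20742084.

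RNA sequencing was performed on 3 WT libraries (genotype Thumpd+/+) and 3 THUMPD1 KO libraries (Thumpd-/-) of HEK-293T cells, an immortalized line of human embryonic kidney origin, grown in DMEM. The KO cells were obtained by cotransfection of WT cells with Cas9 plasmids for guides 1a and 1b, sorting of GFP-positive cells and later single-cell sorting, so clonal differences and the loss of THUMPD1 cannot be told apart. Total RNA was extracted with Trizol, depleted of ribosomal RNA and sequenced as stranded paired-end libraries. The labels do not say whether replicates were separate cultures, and p-values then measure only the spread between these libraries.

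The short arm of chromosome 16 is gene dense towards its telomere, and genes of unrelated function stand side by side. TSC2 restrains the growth kinase mTORC1, and NPRL3 belongs to GATOR1, which restrains the same kinase when amino acids are scarce. AXIN1 is a scaffold of the complex that destroys β-catenin, CREBBP is a histone acetyltransferase, PKD1 encodes polycystin-1, and SMG1 is the kinase of nonsense-mediated mRNA decay.

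The libraries held 32225646 to 44099898 expected counts, so that 1 CPM (count scaled to the library total) stood for 32.2 to 44.1 counts. THUMPD1 was measured at 77.3, 84.6 and 80.8 CPM in WT and at 10.2, 12.0 and 11.0 CPM in KO, here and below in the order of the replicate numbers. The fit gave it a log2 fold change of −2.87 ± 0.085 (SE), with a limma-voom adjusted p of 3.166e-08. An exact two-sided permutation test, with 20 possible groupings, gave p = 0.1, the smallest value that this design allows. Of 6 embryonic kidney transcription factors, 5 (PAX2, WT1, LHX1, SIX2 and EYA1) reached at least 1 CPM in 3 libraries, and the list summed to 43.4 to 43.9 CPM in WT and 39.6 to 44.3 in KO. The genotypes did not overlap in any of these 5 genes, with PAX2, WT1 and LHX1 higher and SIX2 and EYA1 lower in KO. Such separation was common: among all 15088 tested genes, KO lay wholly below WT in 2662 and wholly above it in 3704. Of 4 neural or adrenal genes known from HEK-293 lines, 3 reached at least 1 CPM in 3 libraries. The list summed to 116 to 135 CPM in WT and 109 to 124 in KO. The neurofilament gene NEFM was at 44.7, 28.21 and 33.08 CPM in WT and at 6.72, 4.54 and 4.75 CPM in KO. NEFL and INA went the other way, with every KO library above every WT library. NEFL was at 58.87, 53.64 and 54.0 CPM in WT and at 75.94, 64.13 and 66.69 CPM in KO. INA was at 31.34, 34.26 and 33.45 CPM in WT and at 40.51, 40.43 and 43.85 CPM in KO. Of 7 markers of mature kidney epithelium, 5 were below 1 CPM in every library, 2 of them (SLC34A1 and UMOD) at 0 throughout, and the sum of 61.5 to 64.0 CPM in WT and 53.0 to 68.6 in KO came mostly from LRP2. The defining leukocyte gene PTPRC was at or near 0, and the 4 leukocyte markers summed to at most 1.33 CPM. The 4 fibroblast markers summed to 13.9 to 18.3 CPM in WT and 10.6 to 15.1 in KO, with COL1A2 at 0 in every library. The part of these differences in the results below was not tested.

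Start-site sequence is shown for the members at the ends of the range of change and for the pair of members with the closest start sites, because start-site composition is a feature that the selection did not use. The sequences are from RefSeq on GRCh38.p14, written 5′ to 3′, and capitals mark the GC box, GGGCGG on either strand (CCGCCC when read on the other strand). METRN, which differed least between genotypes, is shown with the 250 bases before its start (chr16:714868-715117, plus strand). XYLT1, which differed most, is shown in the same way (chr16:17470961-17471210, minus strand). NTHL1 and TSC2 are transcribed away from each other, and the 100 bases between their starts are given on the strand of TSC2 (chr16:2047867-2047966, plus strand).
METRN: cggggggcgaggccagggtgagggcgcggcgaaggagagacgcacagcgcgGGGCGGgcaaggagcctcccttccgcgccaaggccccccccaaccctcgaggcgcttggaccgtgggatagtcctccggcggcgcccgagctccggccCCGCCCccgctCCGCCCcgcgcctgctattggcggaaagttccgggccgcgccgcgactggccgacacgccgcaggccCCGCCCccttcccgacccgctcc
XYLT1: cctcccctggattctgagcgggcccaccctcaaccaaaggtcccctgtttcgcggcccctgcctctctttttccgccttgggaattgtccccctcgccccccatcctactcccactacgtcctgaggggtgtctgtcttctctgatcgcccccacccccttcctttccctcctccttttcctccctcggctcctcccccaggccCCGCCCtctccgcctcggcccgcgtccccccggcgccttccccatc
NTHL1 and TSC2: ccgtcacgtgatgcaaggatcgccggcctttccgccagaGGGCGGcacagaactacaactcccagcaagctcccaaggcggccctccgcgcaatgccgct

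The METRN window held 4 GC boxes and 36 CG dinucleotides, at 78.4% G and C. The XYLT1 window held 1 GC box and 15 CG dinucleotides, at 67.6% G and C, and the space between NTHL1 and TSC2 held 1 GC box. RefSeq promoters of 300 bases (250 before and 50 after the start) were matched for 51 of the 59 genes, with 74 distinct sequences, and for 10822 tested genes, with 15852 sequences. A GC box stood in 74.3% of the members' promoters and in 66.2% of all promoters. A CCAAT box (CCAAT or ATTGG) stood in 28.4% against 35.1%, and TATAAA or its reverse complement in 1.4% against 6.4%. The ETS-family core CCGGAAG (or CTTCCGG) stood in 27.0% against 16.5%. The median number of CG dinucleotides per promoter was 36 for the members and 25 for all tested genes. These matches describe letters in a window and not binding.

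Every one of the 59 genes had a lower fitted level in THUMPD1 KO than in WT. The median log2 fold change was −0.44, with quartiles of −0.54 and −0.35 and a range from −2.00 (XYLT1) to −0.07 (METRN). The median member was thus at 74.1% of its WT level. Over all 15088 tested genes the median was 0.02, with quartiles of −0.12 and 0.14. Of the 59 genes, 57 were below the threshold of 0.05 for the adjusted p of limma-voom and lower in KO, against 13.0% of all tested genes. In 57 genes every KO library was below every WT library in CPM, against 17.6% of all tested genes. Nothing is read from these counts, since the members were chosen on this contrast. The genes not called were METRN and GNPTG. SPSB3, ALG1, GLIS2, CARHSP1, HAGHL and TSC2 were called in 7, 10, 11, 12, 14 and 15 of 16 alternative settings, and the other 51 genes in all 16. In total RNA from whole cultures, fewer cells expressing a gene and less RNA per cell cannot be told apart.

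The size of the change varied among the 59 genes by more than the standard error of a single gene. The SD of the log2 fold changes was 0.26, and 0.16 without XYLT1, while the median standard error of a single gene was 0.062. The fold change was within 0.1 of the members' median in 26 genes and within 0.2 in 47. The 95% interval of the fold change held the median in 39 genes, lay below it in 11 and above it in 9. Across the 59 genes, which share libraries and are not independent, Spearman's rho of the log2 fold change was 0.11 with position, −0.20 with GC content of the exons, 0.26 with exon length and −0.01 with the WT level in CPM per kilobase.

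The shift was present in each KO library but not to the same extent. Relative to the WT mean of each gene, the median log2 level over the 59 genes was 0.03, −0.03 and 0.0 in WT, and −0.50, −0.42 and −0.38 in KO. In KO replicate 1 all 59 genes were below the lowest WT library, in replicate 2 57 and in replicate 3 58. KO replicate 1 was the lowest KO library in 32 genes, and replicate 3 the highest in 41. Together the 59 genes took 0.503, 0.496 and 0.505% of all counts in WT and 0.355, 0.382 and 0.407% in KO. The median SD of the log2 level within a genotype was 0.053 in WT and 0.089 in KO.

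**Figure D1:**
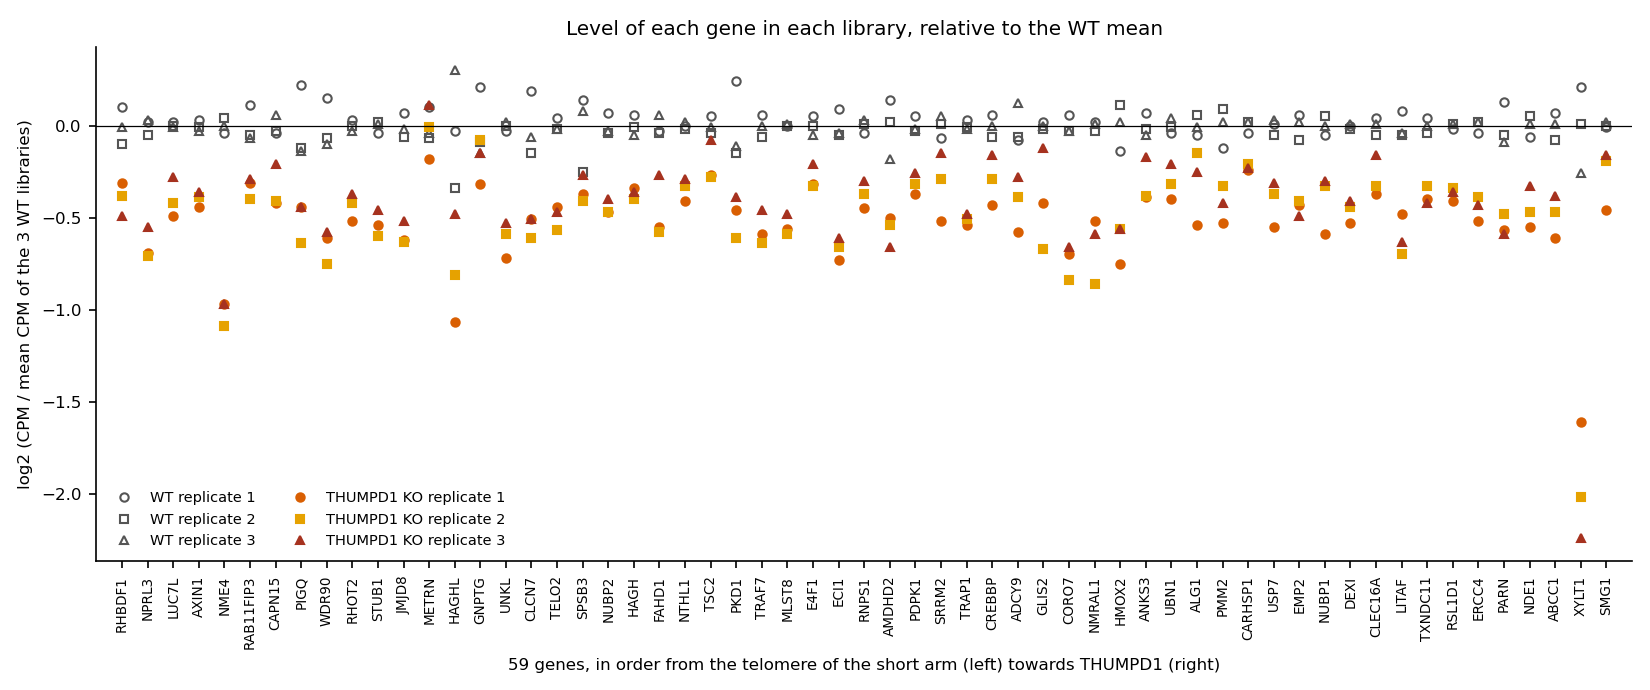
The vertical axis gives the log2 ratio of the CPM in one library to the mean CPM of the 3 WT libraries for each of the 59 genes, ordered along the horizontal axis from the telomere towards THUMPD1; open grey symbols are WT replicates and filled symbols THUMPD1 KO replicates. The filled symbols lie below the open ones in 57 genes, METRN and GNPTG overlap, and XYLT1 is the lowest.

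The 14 genes in the first 1 Mb had a median log2 fold change of −0.47. RHBDF1, a rhomboid-like protein that carries ADAM17 to the cell surface, had a log2 fold change of −0.44, and NPRL3 one of −0.64. The splicing factor LUC7L was at −0.40, the scaffold AXIN1 at −0.40, and NME4, a mitochondrial nucleoside diphosphate kinase, at −1.02. RAB11FIP3, an effector of the recycling GTPase RAB11, was at −0.33, the calpain-family gene CAPN15 at −0.36, PIGQ, a subunit of the enzyme that starts GPI anchor synthesis, at −0.50, and the centriolar gene WDR90 at −0.65. RHOT2, a mitochondrial GTPase of organelle transport, was at −0.44, and the ubiquitin ligase STUB1 and its opposite-strand neighbour JMJD8 were at −0.54 and −0.60. METRN, which encodes the secreted protein meteorin, was at −0.07, and HAGHL, a relative of glyoxalase II, at −0.83.

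The 8 genes between 1 and 2 Mb had a median of −0.46 and the 11 between 2 and 3 Mb one of −0.39. In the first of these blocks GNPTG was at −0.19, the zinc-finger gene UNKL at −0.61, the lysosomal chloride transporter CLCN7 at −0.54, and TELO2, a chaperone of mTOR-family kinases, at −0.49. SPSB3 was at −0.36, the iron-sulfur cluster assembly gene NUBP2 at −0.45, HAGH (glyoxalase II) at −0.36 and the mitochondrial enzyme FAHD1 at −0.47. In the next block the DNA glycosylase NTHL1 was at −0.34, TSC2 at −0.22, PKD1 at −0.49, the ubiquitin ligase TRAF7 at −0.57 and the mTOR subunit MLST8 at −0.54. The transcription factor E4F1 was at −0.30, the mitochondrial enoyl-CoA isomerase ECI1 at −0.66, and RNPS1, a splicing protein of the exon junction, at −0.39. AMDHD2, an enzyme of amino sugar metabolism, was at −0.55, the kinase PDPK1 at −0.32 and the nuclear speckle scaffold SRRM2 at −0.31.

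Between 3 and 6 Mb the median of 10 genes was −0.44. The mitochondrial chaperone TRAP1 was at −0.51, CREBBP at −0.31, the adenylyl cyclase ADCY9 at −0.41, the zinc-finger transcription factor GLIS2 at −0.47 and the Golgi coronin CORO7 at −0.73. NMRAL1 and the haem oxygenase HMOX2, which overlap on opposite strands, were at −0.66 and −0.62. ANKS3, a ciliary protein, was at −0.31, the histone chaperone subunit UBN1 at −0.32, and the mannosyltransferase ALG1 at −0.31. In the 10 genes from there to RSL1D1 the median was −0.41. PMM2, the phosphomannomutase of N-glycan synthesis, was at −0.42, the RNA-binding protein CARHSP1 at −0.22, the deubiquitinase USP7 at −0.42, the membrane protein EMP2 at −0.44 and the iron-sulfur assembly gene NUBP1 at −0.40. DEXI was at −0.46, CLEC16A at −0.29, LITAF at −0.59, TXNDC11 at −0.37 and the nucleolar gene RSL1D1 at −0.38.

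The 6 genes nearest to THUMPD1 had a median of −0.47. ERCC4, the nuclease subunit XPF, was at −0.45, the deadenylase PARN at −0.54, the dynein regulator NDE1 at −0.45 and the efflux transporter ABCC1 at −0.49. XYLT1, which starts the glycosaminoglycan chains of proteoglycans, was at −2.00 and SMG1 at −0.29. The medians of the 6 position blocks thus lay between −0.47 and −0.39, with the highest and the lowest differing by less than the interquartile range of the members.

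The stretch from which the genes were drawn had a similar shift. The other 184 tested genes distal to THUMPD1 had a median log2 fold change of −0.38 (quartiles −0.50 and −0.24). Of these, 131 were called lower (71.2%, against 13.0% of all tested genes) and 1 higher (against 13.7% of all tested genes). They belong to the stretch already known to be lower in KO, so nothing is read from these counts. The 166 tested genes of the short arm proximal to THUMPD1 had a median of −0.02, the 316 of the long arm one of 0.10, and the 13987 of chromosomes other than 16 and 22 one of 0.02. The 375 genes of chromosome 22 also had a lower median, of −0.34. In windows of 2 Mb with at least 5 tested genes, the medians distal to THUMPD1 lay between −0.45 and −0.33, and that of the first window on its proximal side was −0.10.

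**Figure D2:**
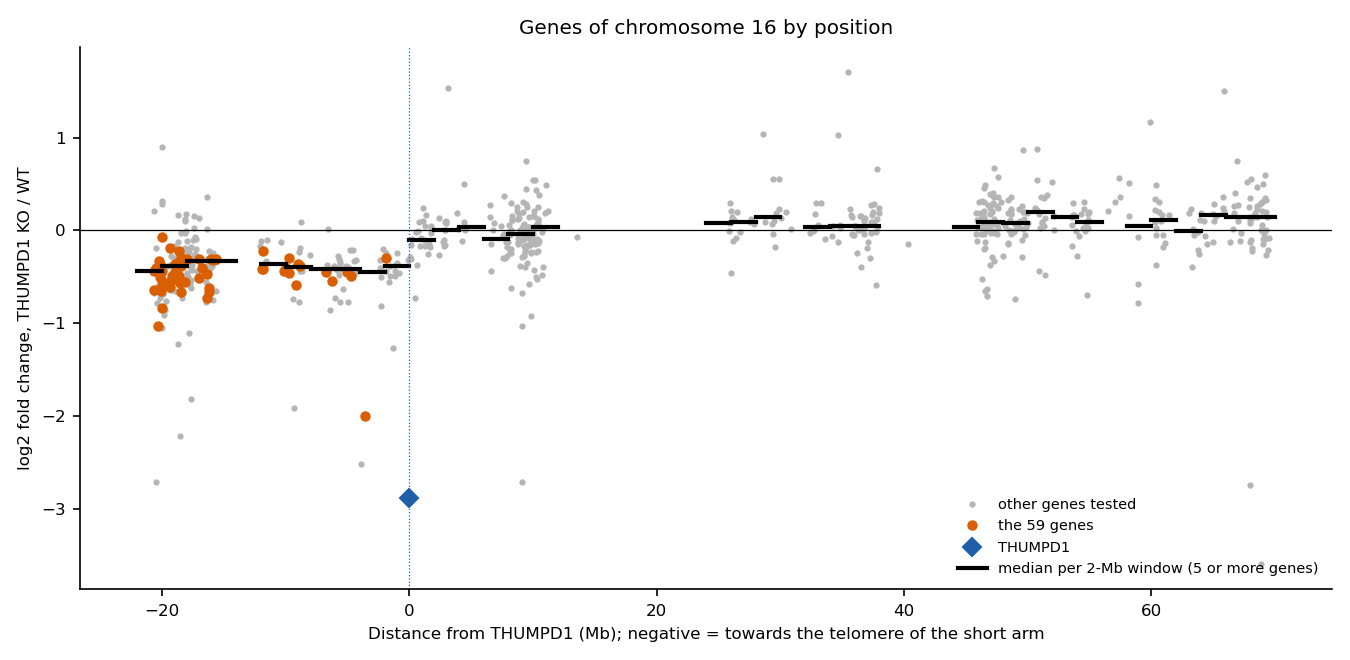
Each point is a tested gene of chromosome 16, with its distance from THUMPD1 in Mb on the horizontal axis and its log2 fold change (THUMPD1 KO / WT) on the vertical axis; orange points are the 59 genes, the blue diamond is THUMPD1 and black bars are medians of 2-Mb windows. The window medians are −0.45 to −0.33 to the left of THUMPD1 and −0.10 in the first window to its right.

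The nearest tested genes on both sides of THUMPD1 had fold changes below 0, but not all were clearly apart from it. GPRC5B, the nearest tested gene that lies wholly on the distal side, had a log2 fold change of −0.46 ± 0.087 (SE), and ACSM3, which starts before THUMPD1 and overlaps it, one of −0.31 ± 0.179. On the proximal side ERI2 was at −0.29 ± 0.061, REXO5 at −0.31 ± 0.088, DCUN1D3 at −0.16 ± 0.098, LYRM1 at −0.09 ± 0.087 and LDAF1 at −0.73 ± 0.118. The fold changes of ACSM3, DCUN1D3 and LYRM1 were not large beside their SE, and ACSM3 had means of only 1.23 CPM in WT and 1.11 in KO. The next protein-coding genes were CRYM at −0.02 ± 0.212, NPIPB3 at −0.01 ± 0.072, METTL9 at −0.17 ± 0.045, NPIPB4 at 0.10 ± 0.075 and UQCRC2 at −0.16 ± 0.041. These neighbours were taken by position.

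The first and the last of the 59 genes by position both had lower levels in every KO library. RHBDF1 was at 5.46, 4.75 and 5.04 CPM in WT and at 4.09, 3.90 and 3.63 CPM in KO. SMG1 was at 354, 356 and 362 CPM in WT and at 260, 312 and 320 CPM in KO. The groups did not overlap in either gene, and SMG1 was lowest in KO replicate 1, with an SD of 32.6 CPM in KO against 4.17 in WT.

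Mitochondrial and metabolic enzymes had the lowest median of the 9 functional groups, −0.62 over 9 genes (HAGH, HAGHL, NME4, RHOT2, FAHD1, ECI1, TRAP1, NMRAL1 and HMOX2), and also 3 of the 5 lowest members. NME4 was at 121, 128 and 125 CPM in WT and at 63.7, 58.8 and 63.8 CPM in KO. Its groups were far apart, with means of 125 ± 3.48 and 62.1 ± 2.86 CPM (SD, n = 3). ECI1, which helps to oxidize unsaturated fatty acids, was at 48.9, 44.5 and 44.8 CPM in WT and at 27.9, 29.2 and 30.2 CPM in KO, without overlap. TRAP1 was at 239, 233 and 231 CPM in WT and at 162, 164 and 168 CPM in KO, and at 45.2 CPM per kilobase of exon it was among the 3 most abundant members in WT. HAGHL, the least abundant member, was at 2.92, 2.35 and 3.68 CPM in WT and at 1.42, 1.70 and 2.14 CPM in KO. Its groups did not overlap but were spread, with an SD of 0.665 CPM in WT and 0.366 in KO, and it was no longer called without KO replicate 1 (52 members called) or without KO replicate 2 (53 called).

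The 7 genes of glycosylation and the lysosome held both the gene with the largest difference and 1 of the 2 that overlapped, with a median of −0.50. XYLT1 was at 7.81, 6.77 and 5.63 CPM in WT and at 2.21, 1.66 and 1.43 CPM in KO. All KO values were well below all WT values, and the means were 6.74 ± 1.09 and 1.77 ± 0.404 CPM (SD, n = 3). Its paralog on chromosome 17, XYLT2, which catalyses the same step, was at 34.6 ± 0.468 CPM in WT and 34.2 ± 1.47 CPM in KO (log2 fold change −0.02, limma-voom adjusted p = 0.766). GNPTG, the regulatory subunit of the enzyme that makes the mannose 6-phosphate tag of lysosomal proteins, was at 12.3, 9.98 and 9.63 CPM in WT and at 8.54, 10.0 and 9.59 CPM in KO. KO replicate 2 lay above 2 WT libraries, and WT replicate 1 stood apart from the other 2. The 95% interval of its fold change ran from −0.43 to 0.05. GNPTAB on chromosome 12, which encodes the catalytic subunits of the same enzyme, fell from 75.2 ± 1.83 to 65.7 ± 1.18 CPM (log2 fold change −0.20, limma-voom adjusted p = 0.00645), with every KO library below every WT library. The log2 fold changes of the 2 genes of this enzyme were −0.19 ± 0.108 and −0.20 ± 0.042 (SE).

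The membrane and signalling group of 10 genes had a median of −0.42 and contained METRN, the other gene that overlapped. METRN was at 3.82, 3.40 and 3.46 CPM in WT and at 3.14, 3.54 and 3.85 CPM in KO. The KO libraries spanned the whole WT range, with means of 3.56 ± 0.230 and 3.51 ± 0.355 CPM (SD, n = 3). Its fold change of −0.07 ± 0.129 (SE) turned to 0.04 once the dependence of each library on GC content and length was taken out, and to 0.03 without KO replicate 1, so its direction is not given. Its 95% interval ran from −0.36 to 0.21 and did not reach the members' median of −0.44. METRN had 122 to 161 counts per library.

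The 6 genes of nutrient signalling had a median of −0.40. TSC2 was at 124, 117 and 119 CPM in WT and at 100, 99.3 and 114 CPM in KO. The groups did not overlap, but KO replicate 3 came close to the lowest WT library. Its partners TSC1 on chromosome 9 (0.05, limma-voom adjusted p = 0.53) and TBC1D7 on chromosome 6 (0.10, limma-voom adjusted p = 0.247) were not called. NTHL1, which starts 101 bases from TSC2 on the opposite strand, had a log2 fold change of −0.34 ± 0.062 against −0.22 ± 0.056 (SE) for TSC2. DEXI and CLEC16A, the other divergent pair within 5000 bases that does not overlap, have 2071 bases between their starts. They were at −0.46 ± 0.057 and −0.29 ± 0.060 (SE). HAGH and FAHD1, which are also divergent but overlap at their 5′ ends, were at −0.36 ± 0.058 and −0.47 ± 0.086 (SE).

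The 7 genes of RNA processing and decay had a median of −0.38 and included the most abundant member. SRRM2 was at 1091, 1151 and 1185 CPM in WT and at 799, 935 and 1027 CPM in KO, and at 88.1 CPM per kilobase it led all members in WT. Its groups did not overlap and its KO libraries were spread, with an SD of 115 CPM. RSL1D1, at 41.4 CPM per kilobase in WT, was at 252, 256 and 257 CPM in WT and at 192, 202 and 198 CPM in KO. CARHSP1 was at 29.8, 30.9 and 31.1 CPM in WT and at 25.9, 26.4 and 26.2 CPM in KO. In both genes the libraries within a genotype lay close together and the groups were clearly apart, although CARHSP1 was among the 5 members with the smallest difference.

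The 6 genes of cilium, cytoskeleton and trafficking had a median of −0.47. CORO7 was at 30.0, 28.2 and 28.3 CPM in WT and at 17.7, 16.2 and 18.2 CPM in KO, with no overlap. The 6 genes of the ubiquitin system had a median of −0.56, with a range from −0.61 (UNKL) to −0.36 (SPSB3). The 4 genes of DNA repair and iron-sulfur assembly had one of −0.42, with a range from −0.45 to −0.34. The 4 genes of transcription and chromatin (CREBBP, E4F1, UBN1 and GLIS2) had the highest median, −0.31. Functional groups were drawn up with results known, and the differences between their medians were not tested.

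**Figure D3:**
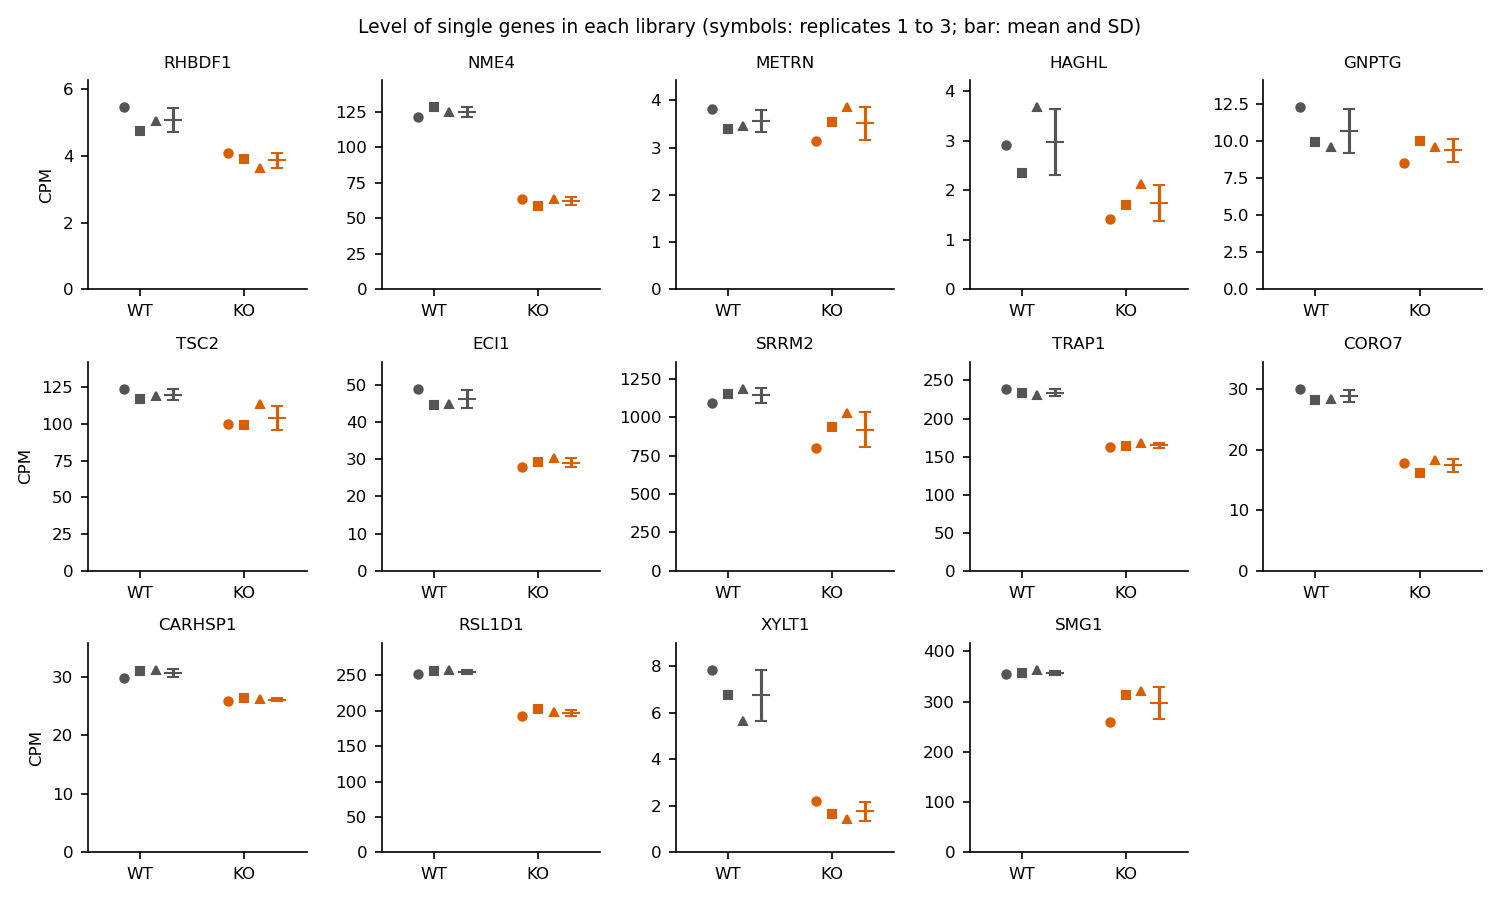
CPM (vertical axes, from 0) of the 14 members with full values in each of the 3 WT (grey) and 3 THUMPD1 KO (orange) libraries, with the mean and SD beside the points. WT and KO points overlap in METRN and GNPTG and are apart in the other 12 genes.

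Products of many of the 59 genes act in complexes with products of genes elsewhere, or have paralogs there. For 28 members, 49 such partner genes on other chromosomes were listed by function, and all 49 were tested. Their median log2 fold change was 0.05, with quartiles of −0.08 and 0.13. Of the 49, 8 were called lower (16.3%, against 13.0% of all tested genes) and 7 higher (14.3%, against 13.7% of all tested genes). With TMM library sizes the split was 8 lower and 3 higher, and with the replicate number as a block 8 lower and 13 higher. A partner had a lower fold change than its own member in 4 of the 49 cases. Among these, HIRA (−0.32 ± 0.047, SE) and GNPTAB (−0.20 ± 0.042) differed from UBN1 (−0.32 ± 0.055) and GNPTG (−0.19 ± 0.108) by less than the SE. The members were chosen for being lower in KO, so nothing is read from this count.

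Partners on chromosome 22, whose tested genes had a median of −0.34, are given apart. The 6 partners there had a median of −0.29, and the 43 on other chromosomes one of 0.06. CABIN1 and HIRA, which form the HIRA histone chaperone complex with UBN1, fell from 165 ± 8.56 to 113 ± 7.22 CPM and from 85.6 ± 2.34 to 68.8 ± 3.19 CPM (SD, n = 3). Their log2 fold changes were −0.57 (limma-voom adjusted p = 5.007e-05) and −0.32 (limma-voom adjusted p = 6.932e-04), beside −0.32 for UBN1. UBN2 on chromosome 7, a paralog of UBN1, was at 0.03 and was not called. EP300, the paralog of CREBBP, fell with a log2 fold change of −0.25 (limma-voom adjusted p = 0.00348), and PMM1, the paralog of PMM2, with one of −0.37 (limma-voom adjusted p = 0.0204). HMOX1, the stress-inducible haem oxygenase, rose from 35.6 ± 2.52 to 43.2 ± 2.70 CPM (log2 fold change 0.28, limma-voom adjusted p = 0.00791), while its constitutive counterpart HMOX2 was at −0.62. DEPDC5, which forms GATOR1 with NPRL3, was at −0.10 (limma-voom adjusted p = 0.327).

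Of the 43 partners outside chromosome 22, 4 were called lower (9.3%) and 6 higher (14%). Among the 13987 tested genes of chromosomes other than 16 and 22, 1483 (10.6%) were called lower and 1965 higher. Of all tested genes, 13.7% were called higher. The shares of the partners were near these, so nothing is read from the number of calls. NEIL1, a DNA glycosylase related in activity to NTHL1, fell from 12.8 ± 1.36 to 8.67 ± 0.661 CPM (SD, n = 3; log2 fold change −0.57, limma-voom adjusted p = 0.00111). The others called lower were GNPTAB, UNK, the paralog of UNKL (−0.22, limma-voom adjusted p = 0.00676), and RHOT1, the paralog of RHOT2 (−0.18, limma-voom adjusted p = 0.028). UPF1, the helicase that SMG1 phosphorylates, rose from 146 ± 3.89 to 171 ± 7.18 CPM (log2 fold change 0.21, limma-voom adjusted p = 0.00563). SAP18 (0.23, limma-voom adjusted p = 0.0249) works with RNPS1, SRRM1 (0.13, limma-voom adjusted p = 0.0386) with SRRM2, and ADAM17 (0.15, limma-voom adjusted p = 0.032) with RHBDF1. PIGC (0.19, limma-voom adjusted p = 0.0302) and PIGP (0.29, limma-voom adjusted p = 0.035) are subunits of the same enzyme as PIGQ, and PIGA and PIGH, 2 further subunits, were not called. Of the 15 partners called, CABIN1, EP300, GNPTAB, HIRA, HMOX1, NEIL1, UNK and UPF1 were called under each of the 16 alternative settings, and the other 7 lost the call under some of them. SAP18 was called in 12 of the 16, RHOT1 and PMM1 in 11, PIGC and SRRM1 in 6, and ADAM17 and PIGP in 5. The number of partners called went down to 8 without KO replicate 2 and 9 without WT replicate 3.

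Several members share sequence or position with other genes, which can affect how reads were assigned. By annotation 52 of the 59 overlap at least 1 other gene, 49 of them a gene on the opposite strand, and no source used here says whether counting used the strand. The 14 members that overlap another member form pairs, such as STUB1 with JMJD8 and TSC2 with PKD1. PKD1 (−0.49) has near-identical pseudogene copies on the same arm, and SMG1 (−0.29) has copies proximal to THUMPD1 and on the long arm, so the levels of PKD1 and SMG1 are uncertain to that extent.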

How the data were processed

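RNA levels were analysed in 3 WT and 3 THUMPD1 KO libraries of HEK-293T cells. Reads had been aligned with STAR to GRCh38, and the authors deposited expected counts per gene from RSEM, which are not scaled between libraries and need not be whole (7.56% of values were not). Positions, lengths and GC content came from GENCODE 44, which held 58472 (99.3%) of the 58870 gene IDs, whereas the methods of the study name release 46. CPM values were computed from the deposited counts and library totals of 32225646 to 44099898, and CPM per kilobase divides by exon length.

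Genes reaching 1 CPM in 3 or more of 6 libraries (15088) were kept; the methods of the study give the limit of 1 CPM but not the number of libraries. Following these methods, counts were normalized by quantiles and modelled by limma-voom (limma 3.58.1 in R 4.3.3), with genotype as the only term and two-sided p-values adjusted by the Benjamini-Hochberg method over all genes tested (threshold 0.05). Log2 fold changes come from this fit. The main fit and some of the alternatives given below were run on simulated counts with a few known changes in both directions. Shifts along a stretch of chromosome, the replicate block and the removal of GC and length dependence were not simulated. Tables and plots were made with Python 3.11.15, pandas 2.3.3 and matplotlib 3.10.9.

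The members, functional groups and partner list were chosen with earlier results of these data known. Every member is named with its log2 fold change by position. Values in each library are given for the first and last member, the 5 lowest and 5 highest fold changes, the 3 highest CPM per kilobase in WT, members whose libraries overlap, and THUMPD1. Partners are named where called or where they are the only partner of such a member. Other genes, among them further partners, genes at the edge, copies and other distal genes, were chosen after their values were seen or by position.

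1 listed kidney marker is not reported here. Replicate numbers are shared between genotypes. Deviations from the genotype means over 11717 genes correlated at 0.287, 0.257 and 0.162 for equal numbers and between −0.275 and 0.113 for unequal ones. All 3 exceeded the limit of 0.1, but so did WT replicate 2 with KO replicate 3, at 0.113. The labels do not say what the numbers mark, so whether they pair the libraries is not known. The main fit left them out, and the replicate block was an alternative. With it 21 partners were called in place of 15. The other alternatives were TMM library sizes, TMM factors from genes outside chromosome 16, library sizes alone, 2 other filters, removal of the dependence of each library on GC content and exon length (splines with 5 degrees of freedom) with and without the block, omission of each library, and edgeR 4.0.16 and DESeq2 1.42.0 on rounded counts.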

Additional observations from a re-analysis of the deposited data

How the results depend on the processing

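The median log2 fold change of the 59 genes was −0.47 to −0.40 when 1 library was left out, and −0.38 both with the GC and length trend removed and with that trend removed under the replicate block. The other distal genes had a median of −0.32 with the trend removed and −0.40 to −0.34 when 1 library was left out. The members' exons have a median GC content of 58.8%, against 47.5% for all tested genes, and the part of GC content in the difference was not tested beyond this. Members called lower numbered 52 to 56 when 1 library was left out, 54 with no CPM filter, 55 with the trend removed and 57 under the replicate block. Genes called over the whole table numbered 4025, 5297 under the replicate block, and 2663 to 4245 when 1 library was left out, the lowest without KO replicate 2. Partners called numbered 15, 21 under the replicate block, and 8 to 16 when 1 library was left out, with 8 without KO replicate 2 and 9 without WT replicate 3, and 10 each without KO replicate 1, with no CPM filter and with TMM factors from genes outside chromosome 16. The block added partners called higher (13 against 7) and changed no call among the members. No median of the 59 genes changed sign under the 16 alternatives. The causes of these changes were not tested. METRN had 122 to 161 counts per library and HAGHL 55 to 137. XYLT1 had 210 to 329 counts in WT and 46 to 86 in KO, with 46 the lowest count of any member. The part of low depth in the values of these genes was not tested.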

Other observations

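Some of the other distal genes lay at the ends of the range of change. HBQ1, a globin-family gene, was at 1.80, 1.66 and 1.61 CPM in WT and at 0.232, 0.249 and 0.155 CPM in THUMPD1 KO (log2 fold change −2.71, limma-voom adjusted p = 1.372e-05). RAB26, a secretory vesicle GTPase, fell from 1.36 ± 0.135 to 0.258 ± 0.0465 CPM (log2 fold change −2.21, limma-voom adjusted p = 4.619e-05), and BICDL2 from 2.73 ± 0.384 to 0.862 ± 0.116 CPM (log2 fold change −1.82, limma-voom adjusted p = 6.463e-05). The synaptic vesicle gene SYNGR3 fell from 3.17 ± 0.303 to 1.5 ± 0.4 CPM (log2 fold change −1.22, limma-voom adjusted p = 0.00138). These genes have levels of a few CPM at most, as XYLT1 does. HBQ1, RAB26 and BICDL2 were below 1 CPM in every KO library and passed the filter only through the WT libraries. Their fold changes and calls are therefore descriptions, and nothing is read from them. FBXL16, an F-box gene, was the only distal gene called higher, at 1.47, 0.996 and 2.07 CPM in WT and 3.35, 2.43 and 2.98 CPM in KO (log2 fold change 0.89, limma-voom adjusted p = 0.0148). With WT replicate 2 below 1 CPM, it passed the filter only with the help of the KO libraries, where it was higher. Nothing is read from its call either.

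Copies of PKD1, SMG1 and PDPK1 are annotated elsewhere on chromosome 16. The tested PKD1 pseudogenes PKD1P1, PKD1P3, PKD1P4, PKD1P5 and PKD1P6, which lie distal to THUMPD1, had log2 fold changes of −0.50 to −0.34 (limma-voom adjusted p between 0.0044 and 0.044), beside −0.49 for PKD1. The readthrough gene PKD1P6-NPIPP1 was at −0.77 (limma-voom adjusted p = 0.014). The SMG1 pseudogenes SMG1P1 to SMG1P6, proximal to THUMPD1, had log2 fold changes of −0.10 to 0.20 and SMG1P7 on the long arm one of −0.10, beside −0.29 for SMG1. PDPK2P, a distal relative of PDPK1, was at 0.17 (limma-voom adjusted p = 0.551), against −0.32 for PDPK1. Reads shared between near-identical copies make each of these values uncertain.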
